A study of Arabidopsis thaliana with 24 samples.

Results

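Wild-type leaf blades of Arabidopsis thaliana frozen late after detachment, at 4, 8 and 12 h, were compared over all genes with blades frozen early, at 10 min, 30 min and 1 h. The comparison took 6 of the 24 libraries of the series, chosen by genotype and time, with 3 libraries on each side and 1 at each time. All 6 came from Col-0 plants 12 d old, grown at 22 °C on MS medium with 1% sucrose in days of 16 h light and 8 h dark. Blades of the first rosette leaf pair were cut off at the petiole and laid on B5 medium free of sucrose, at 22 °C in constant light, so early and late blades share the cut and the medium. Whole blades were extracted, and fewer cells of a type cannot be told apart from less RNA per cell. The series concerns the early signals of root regeneration from such blades. The wild-type libraries at detachment (t0) and at 2 h stood on neither side. As a second genotype, 12 libraries of coi1-2, a mutant of the jasmonate receptor gene COI1, were compared in the same way. They came from plants grown, cut and cultured alike, with 2 libraries at each of the 6 times.

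Wounding a leaf raises cytosolic calcium, and genes for calcium sensors and for transcription factors of the ERF, WRKY and ZAT families are known to be among the first to respond. Lipoxygenases and the enzymes after them make jasmonate from plastid lipids. Its isoleucine conjugate joins COI1 to JAZ repressors, which are then destroyed, and this frees MYC2 and related factors. These factors also activate the JAZ genes and the enzymes that break jasmonate down, so the response limits itself. Sugar and light are known in leaves to induce genes of starch and anthocyanin synthesis.

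Levels are given as TPM, the RSEM estimate of transcript abundance. This unit fixes the sum of every library and so hides the read depth, and values carry no interval for counting error. Each wild-type library held between 17480 and 17802 genes at 1 TPM or more. Changes are late minus early differences of mean log2(TPM + 1), with their standard error (SE), and they understate the change of genes with low levels. Genes are said to be called where limma gave an adjusted p below 0.05, with Benjamini-Hochberg adjustment over the 18596 genes tested. The 3 libraries of a side are 3 times and not replicates, so the spread behind each p holds change with time as well as error. An exact permutation test of 3 against 3 could not go below p = 0.1 for a single gene. Time after cutting cannot be told apart from time of day, constant light and the change of medium.

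Among the wild-type libraries, 2 h resembled 12 h. Their root mean square distance over tested genes was 0.331 log2 units, the smallest of all pairs, against 0.874 from 2 h to 4 h and 1.22 from 2 h to 1 h. The clock gene LHY stood at 36.7 TPM at 2 h and 35.1 TPM at 12 h, and between 0.13 and 1.73 TPM in the other 6 wild-type libraries. In coi1-2 the mean 2 h profile was instead nearest to 4 h, at 0.54 log2 units, and 0.836 from 12 h. The wild-type 2 h library was therefore left out of the comparison and entered only as an alternative. Whether its label is right was not tested. Among the late libraries 4 h stood 0.776 and 0.920 log2 units from 8 h and 12 h, which were 0.489 apart. In coi1-2 the 30 min libraries went apart: they differed by 1.06 log2 units, against 0.31 to 0.501 at the other 5 times compared, and LHY was at 0.26 TPM in replicate 1 and 101.74 TPM in replicate 2. The main counts, medians and calls in coi1-2 are therefore given with and without that replicate 2.

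Among the genes called lower in late blades were many of the early wound response, and among those called higher were some of flavonoid, aliphatic glucosinolate and starch metabolism. Of the 18596 genes tested, 1500 were called, which is 8.07%. There were 724 higher in late blades, or 3.89%, and 776 lower, or 4.17%, and 4840 genes had an unadjusted p below 0.05. The median difference of all tested genes was 0.17 and not 0, and 64.8% of genes had a positive difference. After rescaling of the libraries by median ratios the median was 0.02, and 512 higher and 915 lower genes were called, so that the higher share went from 48.3% to 35.9% of calls. Changes below are to be read against that shift, and counts of called list members against the shares called over all tested genes. In 22.4% of tested genes every late library was above every early one, and in 11.3% every late library was below.

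How many genes were called depended on which libraries were in the fit. Leaving out 1 of the 6 libraries in turn gave between 347 and 2006 calls, with 347 without 8 h, 416 without 30 min, 526 without 12 h, 1333 without 1 h, 1968 without 4 h and 2006 without 10 min. No called gene changed sign in any of these fits. Calls in all 6 of them numbered 304 of the 1500, or 20.3%, made up of 79 of the 724 higher genes (10.9%) and 225 of the 776 lower genes (29.0%). Genes said below to have risen or fallen in the wild type kept their call in all 6, except those for which a loss is given beside the gene or, for flavonoid and anthocyanin genes, in the paragraph after them.

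**Figure D1:**
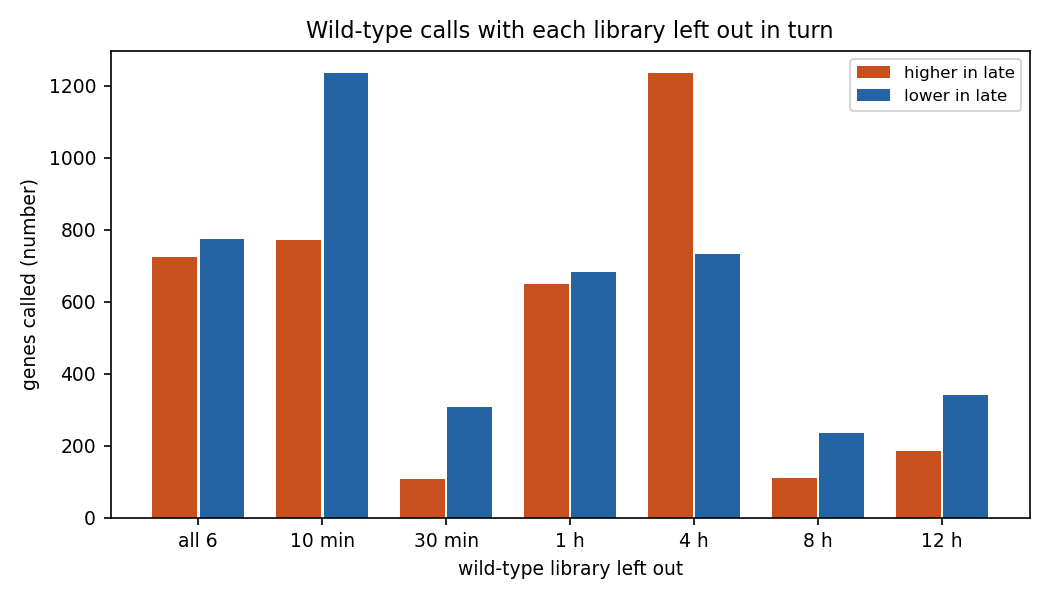
Number of wild-type genes called higher (orange) and lower (blue) in late blades with all 6 libraries and with each library left out in turn; bars start at 0. Without 4 h the higher calls number 1236 against 724 with all libraries, and without 30 min or 8 h they number 107 and 112.

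Set against the single t0 library, most genes called lower in late blades had first been raised. Of the 776, 368 (47.4%) were at least 1 log2 unit above t0 in the early mean and within 1 of t0 in the late mean, and 94 (12.1%) went from at least 1 above t0 to at least 1 below it. A further 197 (25.4%) were near t0 early and below it late. Of the 724 genes called higher, 311 (43.0%) were near t0 early and at least 1 above it late, 289 (39.9%) stayed within 1 of t0 on both sides, and 104 (14.4%) were below t0 early and near it late. These classes are descriptions, since 1 library of t0 stands in both differences. The unused 2 h library lay nearer to the late than to the early mean for 717 of the 724 higher genes and for 769 of the 776 lower genes. As its profile resembled that of 12 h, which is part of the late mean, this is no separate check of the calls.

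**Figure D2:**
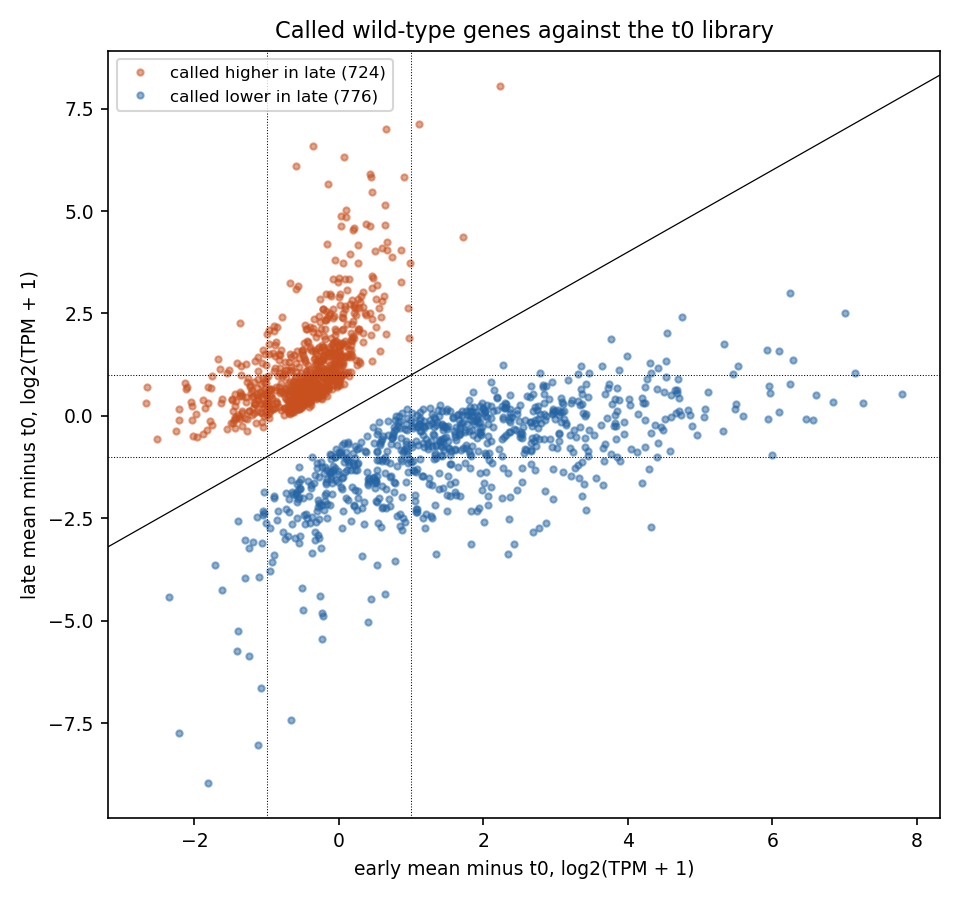
Each point is 1 of the 1500 called wild-type genes, placed by its early mean (x axis) and late mean (y axis) minus the t0 library, in log2(TPM + 1); dotted lines mark 1 log2 unit and the solid line equal means. Genes called lower (blue, 776) spread to the right along a late mean near t0, and genes called higher (orange, 724) spread upward.

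Touch and calcium sensor genes were lower in late blades. Of 10 measured, 7 were called lower, against 4.17% of all tested genes, and none higher. The median difference was -3.73 against 0.17 over all tested genes. TCH4, a xyloglucan endotransglucosylase first found as touch-induced, stood at 501, 658 and 1197 TPM at 10 min, 30 min and 1 h and at 9.25, 3.64 and 2.69 TPM at 4, 8 and 12 h. Every early library was far above every late one, and t0, at 35.6 TPM, lay between. It fell by 7.04 (SE 0.49, limma adjusted p = 0.00237). The calmodulin-like gene TCH3 was at 859.7, 1315 and 1920.2 TPM early and at 40.6, 11.2 and 28.2 TPM late, and fell by 5.72 (SE 0.52, limma adjusted p = 0.00376). CML37, another calmodulin-like sensor, fell by 5.31 from 29.6 to 94.8 TPM early to under 0.4 TPM late. The EF-hand gene AT3G01830 fell by 6.08. CML39, CML41 and CML42 were not called, and CML39 was at 0.11 TPM at 10 min and 154 TPM at 1 h.

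The ERF transcription factors, which bind GCC motifs and act in ethylene and stress responses, followed the same course. Of 13 ERF and CBF genes measured, 8 were called lower, against 4.17% of all, and none higher, with a median of -3.43. RRTF1, also known as ERF109, links wounding and jasmonate to auxin synthesis in roots. It was at 199, 437 and 43.2 TPM in the early libraries, at 0.53, 0.4 and 0 TPM in the late ones, and at 0.03 TPM at t0. The sides did not overlap, and it fell by 6.93 (SE 0.81, limma adjusted p = 0.00736). ERF11, a repressor of ethylene synthesis, was at 112, 114 and 72.0 TPM early and at 0.35, 0.46 and 0.8 TPM late. With so even a spread on each side its fall of 6.01 had 1 of the 10 smallest p (SE 0.24, limma adjusted p = 0.00146). ERF13 fell by 6.94 (SE 0.54, limma adjusted p = 0.00264). ERF105 was at 106, 28.2 and 34.6 TPM early and was listed at 0 in all 3 late libraries and at t0. The CBF genes, which act in cold acclimation, were not called: CBF1 was at 58.1 TPM at 10 min, 6.55 TPM at 30 min and 0.88 TPM at 1 h, so that its fall lay within the early side.

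WRKY and ZAT factors, regulators of defence and stress genes, were lower too. WRKY40, a WRKY repressor of defence, was at 445, 558 and 464 TPM early and at 8.65, 2.87 and 2.03 TPM late. Its late levels were close to the 4.19 TPM of t0, and it fell by 6.66 (SE 0.44, limma adjusted p = 0.00218). WRKY46 fell by 5.15, and WRKY33, a regulator of camalexin synthesis, fell by 4.76. Of 13 WRKY and NAC factors 8 were called lower, against 4.17% of all tested genes. Their median was -2.96, and all 13 differences were negative. The count of calls was 4 without 8 h, 5 without 30 min or 12 h, and 11 without 10 min. Of 7 ZAT zinc finger genes 5 were called lower, against 4.17% of all, with a median of -3.02. ZAT10 was at 255, 291 and 189.6 TPM early and at 5.86, 17.9 and 6.74 TPM late, and fell by 4.60 (SE 0.42, limma adjusted p = 0.00376). ZAT7 and ZAT6 fell by 4.73 and 3.02. The call of ZAT12, a factor of oxidative stress responses, was lost without 30 min (limma adjusted p = 0.063) or 12 h (limma adjusted p = 0.0687).

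The 10 genes with the smallest p were all lower in late blades, and all but AT1G24145 had a late mean within 1 log2 unit of t0. Besides ERF11 they included AT4G29780, annotated as a nuclease, which was at 402, 268 and 212 TPM early and at 2.73, 2.02 and 1.58 TPM late. It fell by 6.53 (SE 0.28, limma adjusted p = 0.00146). DIC2, a mitochondrial dicarboxylate carrier, was at 581, 409.6 and 391 TPM early and at 8.56, 8.95 and 6.23 TPM late. AGP1, an arabinogalactan protein of the cell wall, fell by 4.84, and BAP1, an inhibitor of cell death, also fell by 4.84. WAKL2, a wall-associated kinase-like gene, and GATL10, a galacturonosyltransferase-like gene of pectin synthesis, fell by 3.37 and 3.80.

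**Figure D3:**
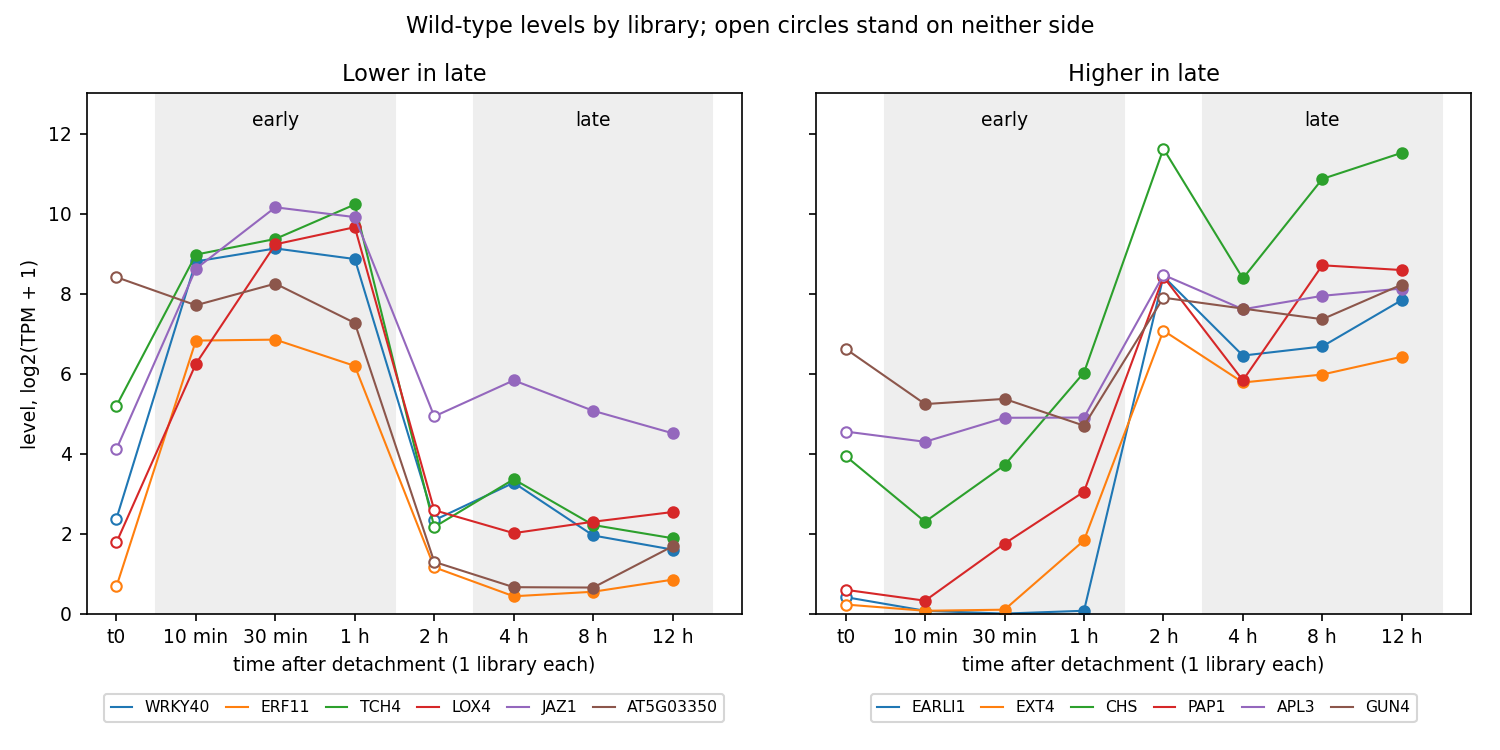
Levels, as log2(TPM + 1), of 6 genes called lower (left) and 6 called higher (right) in late blades, in the 8 wild-type libraries by time; grey bands mark the early and late sides and open circles the t0 and 2 h libraries, which stand on neither side. All 6 genes on the left are high in every early library and all 6 on the right in every late one. The 2 h level lies with the late side, as the whole 2 h profile resembled that of 12 h.

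Many jasmonate genes were high early, but often only from 30 min, so that their 10 min level stood nearer to the late libraries. Of 14 genes of jasmonate synthesis 3 were called lower, against 4.17% of all, and none higher, with a median of -0.62. LOX4, a lipoxygenase at the head of the pathway, was at 74.8, 599 and 807 TPM early and at 3.03, 3.91 and 4.81 TPM late. The sides did not overlap, and it fell by 6.10 (SE 0.88, limma adjusted p = 0.0139). Its call was lost without 30 min (limma adjusted p = 0.0642), 8 h (0.0707) or 12 h (0.0597). OPCL1, a ligase that readies the precursor for side chain shortening, fell by 4.04 (SE 0.52, limma adjusted p = 0.0101), and its call was lost without 8 h (limma adjusted p = 0.0581). LOX3 was at 92.6, 1116 and 1932 TPM early and at 17.9, 12.3 and 14.4 TPM late. It fell by 5.22 (SE 1.09, limma adjusted p = 0.0409), and it was not called without 30 min, 1 h, 4 h, 8 h or 12 h, with adjusted p from 0.0699 to 0.153.

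Other genes of jasmonate synthesis stood above t0 in late blades. LOX2, a lipoxygenase of the chloroplast, was at 283, 1284 and 3945 TPM early and at 5779.6, 4674 and 3763 TPM late, and was not called (difference 2.05, SE 0.91, limma adjusted p = 0.221). AOS, which makes the allene oxide, was at 263 TPM at 10 min, 4036 TPM at 1 h and 665 to 1652 TPM late, against 131 TPM at t0. AOC2, an allene oxide cyclase, was at 1187 to 1863 TPM late against 409.9 TPM at t0. In contrast its paralog AOC3 was at 27.2, 332 and 1069.9 TPM early and at 2.88 to 4.4 TPM late, with an adjusted p of 0.0519.

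Of 12 JAZ repressor genes measured, 2 were called lower, against 4.17% of all, and none higher, with a median of -3.06. JAZ1 was at 393, 1139.7 and 961 TPM early and at 55.9, 32.6 and 21.7 TPM late, against 16.3 TPM at t0. All early libraries were above all late ones, and it fell by 4.43 (SE 0.51, limma adjusted p = 0.00725). JAZ7 fell by 5.21 (SE 1.08, limma adjusted p = 0.0399), and it was not called without 30 min, 1 h, 4 h, 8 h or 12 h, with adjusted p from 0.0722 to 0.141. JAZ10 was at 2.97 TPM at 10 min, 110.3 TPM at 30 min and 311 TPM at 1 h, and at 2.91 to 6.22 TPM late. Its sides overlapped at 10 min and it was not called (difference -3.39, limma adjusted p = 0.228). Without the 10 min library 10 JAZ genes and 7 genes of synthesis were called lower, and without each of the other libraries 1 JAZ gene and between 0 and 2 genes of synthesis. Genes of jasmonate breakdown, such as CYP94B3 and CYP94C1, gave no call among 9 measured, with a median of -2.33, and 6 were called lower without 10 min.

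MYC2, the main factor freed from JAZ proteins, was at 232, 310.2 and 220.4 TPM early and at 11.6, 48.6 and 29.1 TPM late. It was already high at 10 min and fell by 3.25 (SE 0.50, limma adjusted p = 0.0168), and its call was lost without 30 min (limma adjusted p = 0.0798) or 12 h (0.0668). JAM1, a factor that opposes MYC2, fell by 2.94 (SE 0.35, limma adjusted p = 0.00806). MYC2 and JAM1 were the only calls among 14 measured genes of jasmonate factors and outputs. Of these 14 differences 8 were positive and 6 negative, with a median of 0.44. VSP2, a storage protein used as a marker of jasmonate response, was at 33.3, 71.1 and 268 TPM early and at 906, 565 and 136 TPM late, and was not called (difference 2.24, limma adjusted p = 0.208).

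The rapid stress response element CGCGTT, known from promoters that answer wounding within minutes, was searched on both strands in the 250 bases before the gene start of 17627 tested genes. It stood in 63 of 751 genes called lower (8.39%), in 12 of 703 called higher (1.71%) and in 2.85% of all. Of the 469 lower genes that were raised over t0 early, 10.4% held it. In jasmonate synthesis it stood in 1 of 14 windows, upstream of LOX4. It stood in 1 of 12 JAZ windows and in 0 of 9 of jasmonate breakdown. Touch genes held it in 2 of 10 windows and ERF and CBF genes in 1 of 13. It stood in 0 of 13 WRKY and NAC windows and 0 of 7 ZAT windows. The LOX4 window is printed because that gene, whose call was lost without 30 min, 8 h or 12 h as given above, holds the element. It comes from RefSeq TAIR10.1, read 5′ to 3′ on the gene's own strand, with the element in capitals. The window lies at chr1:27308263-27308512 on the plus strand of chromosome 1 and ends at the base before the gene start.
LOX4: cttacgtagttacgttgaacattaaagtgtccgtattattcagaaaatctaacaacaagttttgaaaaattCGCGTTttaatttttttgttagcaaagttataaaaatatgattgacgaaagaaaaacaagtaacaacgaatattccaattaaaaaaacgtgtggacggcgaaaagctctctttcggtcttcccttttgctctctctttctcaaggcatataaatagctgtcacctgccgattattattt
The element begins at position -179 before the gene start. A match is a description of these letters and not a bound site. The G-box CACGTG, the motif that MYC factors are known to bind, stood in 5 of 12 JAZ windows (41.7%) against 7.57% of all windows and 8.92% of those of genes called lower. It stood in 2 of 14 windows of jasmonate synthesis, in 1 of 14 of jasmonate factors and outputs and in 0 of 9 of jasmonate breakdown, and in 5 of 13 of the ERF and CBF genes and 5 of 10 of the morning clock genes.

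Genes of salicylic acid signalling were lower in late blades. Of 12 measured, 6 were called lower, against 4.17% of all, and none higher, with a median of -1.71. Without 8 h 3 were called and without 30 min 4, and the median ran from -0.97 without 1 h to -2.42 without 10 min. SARD1, which with its relative CBP60G activates salicylic acid synthesis, was at 26.5, 25.8 and 38.7 TPM early and at 1.03, 0.33 and 0.56 TPM late. It fell by 4.25 (SE 0.25, limma adjusted p = 0.00172), to below the 6.34 TPM of t0. CBP60G fell by 4.5 and WRKY70, a factor between salicylic acid and jasmonate signalling, fell by 4.92. ICS1, the enzyme of that synthesis, was not called (difference 0.57, limma adjusted p = 0.159). LURP1 went from 662 TPM at t0 to 122, 167 and 141 TPM early and to 0.2, 1.03 and 11.4 TPM late. Its call was lost without 30 min (limma adjusted p = 0.0745) or 8 h (0.078). PCC1, a gene known to be under pathogen and clock control, was at 922, 1087 and 882 TPM early and at 0.71, 4.18 and 56.3 TPM late. It fell by 6.91 (SE 1.21, limma adjusted p = 0.0245), and the call was lost without 30 min (limma adjusted p = 0.101), 1 h (0.0566) or 8 h (0.107).

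Among the other hormones, 4 of 7 type-A response regulators, cytokinin-induced repressors of cytokinin signalling, were called lower, against 4.17% of all. Their median was -2.63. ARR4 was at 149.7 TPM at t0, at 66.8, 42.1 and 39.6 TPM early and at 9.19, 7.74 and 4.55 TPM late. It fell by 2.63 (SE 0.31, limma adjusted p = 0.00787) and was below t0 on both sides. ARR5, ARR6 and ARR7 fell by 2.92, 2.64 and 3.72, and none of these 3 was called without 8 h, with adjusted p of 0.0504, 0.0527 and 0.0724. ARR7 was not called without 30 min (0.0624) or 12 h (0.0613) either. GASA6, a gibberellin-regulated cell wall gene, fell from 648 TPM at t0 through 508, 213 and 57.5 TPM to 0.78, 0.12 and 0.12 TPM, a difference of -7.15 (SE 0.76, limma adjusted p = 0.00578). Of 16 abscisic acid genes 4 were called lower, against 4.17% of all. Among them was RAB18, a dehydrin, at 59.7 to 75.3 TPM early and 8.12 to 17.35 TPM late. Its call was lost without 30 min (limma adjusted p = 0.0617). The other 3 were CYP707A3, an enzyme of abscisic acid breakdown (lost without 8 h or 12 h), HAI1, a phosphatase (lost without all but 10 min), and NCED3, an enzyme of synthesis (lost without 30 min, 4 h, 8 h or 12 h), with limma adjusted p of up to 0.173. Without 30 min, 8 h or 12 h 1 gene of the list was called. In the tryptophan and auxin synthesis list 1 of 13 measured genes was called, against 8.07% of all. This was YUC2, a flavin monooxygenase of auxin synthesis, at 0.22 to 0.59 TPM early and 1.92 to 3.03 TPM late, a rise of 1.25 (SE 0.22, limma adjusted p = 0.026) that was not called without 30 min (limma adjusted p = 0.116), 8 h (0.0874) or 12 h (0.0721). ASA1, the anthranilate synthase subunit that feeds auxin synthesis, was at 25.4, 48.0 and 97.7 TPM early and at 33.2, 24.0 and 23.7 TPM late, and was not called (difference -0.86, limma adjusted p = 0.306).

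Of 16 regeneration and root founder genes only 6 passed the filter of 1 TPM in 2 libraries. WOX11, which marks the first step of root founder fate, was at 0, 0 and 0.04 TPM early and at 0, 0.02 and 0.22 TPM late, and it was not tested. LBD16, a factor of root founder cells, was listed at 0 in all early libraries and stood at 0.36, 0.69 and 1.17 TPM late, and it was not tested either. AT1G22190, annotated as an AP2/ERF factor of the integrase-type DNA-binding family, was the only called gene, lower by 2.24 (SE 0.45, limma adjusted p = 0.0373). It was not called without 10 min, 30 min, 1 h, 8 h or 12 h, with adjusted p from 0.0608 to 0.109.

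**Figure D4:**
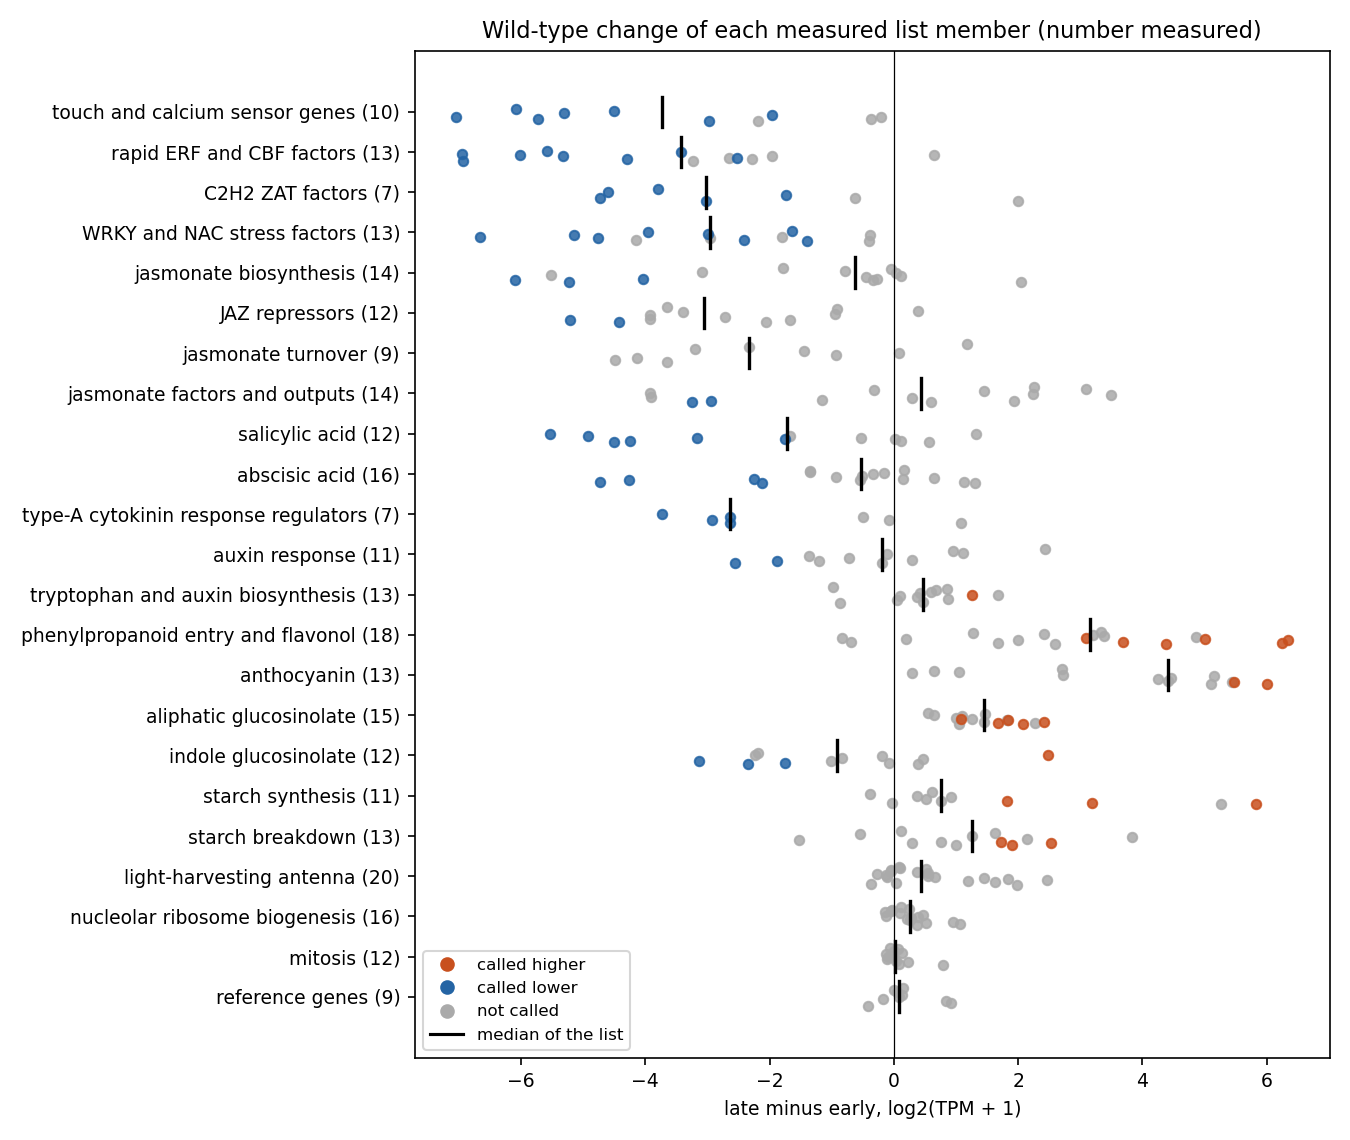
Late minus early difference, in log2(TPM + 1), of every measured member of 23 gene lists in wild-type blades, with genes called higher in orange, called lower in blue and not called in grey; black bars mark list medians. Touch, ERF, ZAT and WRKY lists lie to the left, with medians from -3.73 to -2.96, and flavonol and anthocyanin lists to the right, at 3.15 and 4.41.

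The highest rise in late blades was that of EARLI1, a secreted lipid transfer-like protein. It was at 0.05, 0 and 0.05 TPM early and at 86.4, 101.4 and 228 TPM late, and rose by 6.94 (SE 0.37, limma adjusted p = 0.00146). Its neighbours on chromosome 4 rose with it: AZI1, a protein of systemic immunity, by 5.81 (SE 0.38, limma adjusted p = 0.00206), AT4G12490 by 4.92 and AT4G12495 by 6.69. These are close paralogs or adjoining loci whose reads may have been shared between them in counting. The calls of AT4G12490 and AT4G12495 were lost without 8 h (limma adjusted p = 0.0581 and 0.0504), and that of AT4G12490 also without 30 min (0.0545). EXT4, an extensin of the cell wall, was at 0.05, 0.07 and 2.55 TPM early and at 53.8, 61.9 and 84.6 TPM late, and rose by 5.39 (SE 0.51, limma adjusted p = 0.00412).

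Flavonoid genes were higher in late blades, with the lowest late levels of those named at 4 h. Of 18 genes from phenylpropanoid entry to flavonols 6 were called higher, against 3.89% of all, and none lower, with a median of 3.15. In 9 every late library was above every early one, against 22.4% of all tested genes. CHS, chalcone synthase, the entry enzyme of flavonoids, was at 3.91, 12.1 and 64.1 TPM early and at 332, 1864 and 2931 TPM late, and rose by 6.24 (SE 1.17, limma adjusted p = 0.0299). Its level climbed within each side. FLS1, flavonol synthase, was at 3.76, 6.48 and 8.83 TPM early and at 64.3, 357 and 494 TPM late, and rose by 5.0 (SE 0.78, limma adjusted p = 0.0172). F3H, flavanone 3-hydroxylase, rose by 6.34 (SE 1.31, limma adjusted p = 0.0392), and 4CL3, a coumarate ligase, rose by 4.37 (SE 0.83, limma adjusted p = 0.0307). PAL1, the entry enzyme of phenylpropanoids, was at 195 TPM at 1 h and 79.1 TPM at 4 h, so its sides overlapped, and it was not called (difference 2.59, limma adjusted p = 0.211).

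Of 13 measured anthocyanin genes 2 were called higher, against 3.89% of all tested genes, with a median of 4.41. In 11 the late libraries were all above the early ones, against 22.4% of all. PAP1, a MYB activator of anthocyanin synthesis, was at 0.25, 2.36 and 7.26 TPM early and at 55.9, 417 and 384 TPM late, and rose by 6.0 (SE 0.99, limma adjusted p = 0.0209). PAP2, its close paralog MYB90, was at 0, 0 and 1.48 TPM early and at 7.49, 147 and 173 TPM late, and rose by 5.48 (SE 1.2, limma adjusted p = 0.046). DFR, the first enzyme particular to anthocyanins and tannins, was at 0.31 to 1.67 TPM early, 0.7 TPM at 4 h, and 279.7 and 475 TPM at 8 h and 12 h. It was not called (difference 5.10, limma adjusted p = 0.192), and the 4 h library alone overlapped the early side.

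All these flavonoid calls depended on single libraries. Without 4 h, 12 phenylpropanoid and flavonol genes and 10 anthocyanin genes were called higher, and without 30 min, 8 h or 12 h none was. CHS, FLS1 and PAP1 were not called without 30 min (limma adjusted p = 0.121, 0.0757 and 0.0856), 8 h (0.122, 0.0802 and 0.0894) or 12 h (0.106, 0.0617 and 0.0859). F3H, PAP2 and 4CL3 were also not called without 10 min (0.0719, 0.0822 and 0.0563) or 1 h (0.0618, 0.0728 and 0.0658), with adjusted p of up to 0.167 without 30 min, 8 h or 12 h.

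The G-box stood in 5 of 18 windows of the phenylpropanoid and flavonol genes (27.8%), against 4.98% of those of 703 genes called higher and 7.57% of all. It also stood in 4 of 11 windows of starch synthesis, 4 of 13 of starch breakdown and 3 of 13 of anthocyanin genes. Aliphatic glucosinolate genes held it in 1 of 15 windows, and the uncalled antenna genes in 4 of 20. The CHS window is printed because CHS was called and holds the motif. It lies on the plus strand of chromosome 5 at chr5:4488226-4488475 in RefSeq TAIR10.1, with the G-box in capitals.
CHS: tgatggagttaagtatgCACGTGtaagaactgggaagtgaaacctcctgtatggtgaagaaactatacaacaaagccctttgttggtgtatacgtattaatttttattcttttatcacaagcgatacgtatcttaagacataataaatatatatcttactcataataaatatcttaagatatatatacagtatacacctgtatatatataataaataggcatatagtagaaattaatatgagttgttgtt
The G-box begins at position -233 before the gene start. The evening element AAAATATCT, a motif of clock-controlled genes, stood in 3.98% of windows of genes called higher, 3.73% of those called lower and 2.63% of all.

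Aliphatic glucosinolate genes, whose products are defence compounds made from methionine, were moderately higher. All 15 differences were positive, against 64.8% of all tested genes. Of the 15, 5 were called higher, against 3.89% of all, and none lower, with a median of 1.46. In 13 every late library was above every early one, against 22.4% of all. IMD1, an isopropylmalate dehydrogenase of methionine chain elongation, was at 55.7, 50.4 and 40.6 TPM early and at 220.3, 250.5 and 326 TPM late, and rose by 2.41 (SE 0.22, limma adjusted p = 0.00381). BAT5, a plastid transporter of the same steps, rose by 2.07, and its call was lost without 30 min (limma adjusted p = 0.0567) or 8 h (0.0631). Without 4 h 11 of the list were called, and without 30 min or 8 h 1 was. The indole glucosinolate genes went the other way for 3 of 4 calls among 12 measured: MYB51, their activator, fell by 3.13 (SE 0.35, limma adjusted p = 0.00685). CYP81F4, an enzyme of indole side chain modification, was at no more than 0.09 TPM early and at 5.53, 7.95 and 2.31 TPM late. It rose by 2.48 (SE 0.38, limma adjusted p = 0.016), and its call was lost without 30 min (limma adjusted p = 0.0754) or 8 h (0.0581).

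Genes of both starch synthesis and starch breakdown were among those called higher. Of 11 synthesis genes 3 were called higher and of 13 breakdown genes 3, against 3.89% of all. Their medians were 0.76 and 1.26, and no gene of either list was called lower. Without 30 min or 8 h 1 gene of each list was called, and without 1 h 4 and 5. APL3, a sugar-induced subunit of ADP-glucose pyrophosphorylase, was at 18.6, 28.7 and 28.9 TPM early and at 194, 245 and 278 TPM late. The levels were even within each side, and it rose by 3.20 (SE 0.25, limma adjusted p = 0.00264). GBSS1, the granule-bound synthase of amylose, was at 0.71, 4.72 and 45.3 TPM early and at 174, 476 and 990.4 TPM late, and rose by 5.82 (SE 1.27, limma adjusted p = 0.0454). Its call was lost without 10 min (limma adjusted p = 0.0564), 30 min (0.165), 4 h (0.053), 8 h (0.155) or 12 h (0.143), on rescaled libraries (0.0515), with a pseudocount of 0.1 (0.0562) and with no filter (0.0695). ISA3, a debranching enzyme of breakdown, was at 91.9, 94.7 and 65.4 TPM early and at 382, 593 and 495 TPM late, and rose by 2.53 (SE 0.25, limma adjusted p = 0.0045). SEX4, a glucan phosphatase, rose by 1.91, and its call was lost without 30 min (limma adjusted p = 0.0582), 8 h (0.0655) or 12 h (0.0501). SBE2.2, a branching enzyme, rose by 1.81 and DPE2, a glucanotransferase of maltose use, by 1.73. Their calls were lost without 30 min (limma adjusted p = 0.0555 and 0.106) or 8 h (0.0568 and 0.131), and that of DPE2 without 4 h (0.0642) or 12 h (0.0953).

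Of 11 measured genes of sugar starvation and dormancy 10 differences were negative, with a median of -1.89. There were 2 calls lower and 1 higher, against 4.17% and 3.89% of all. EXL2, an EXORDIUM-like gene, fell by 4.71 (SE 0.40, limma adjusted p = 0.00334). TPS5, a trehalose phosphate synthase-like gene, was at 11.5, 9.13 and 5.07 TPM early and at 61.5, 135 and 195 TPM late and rose by 3.69 (SE 0.48, limma adjusted p = 0.0104), while its relative TPS11 fell by 2.63 (SE 0.32, limma adjusted p = 0.00805). The TPS5 call was lost without 30 min (limma adjusted p = 0.0505) or 8 h (0.0601) and that of TPS11 without 8 h (0.0502). NIA1, nitrate reductase, fell by 3.72 (SE 0.47, limma adjusted p = 0.00916), and its call was lost without 8 h (limma adjusted p = 0.0504).

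Photosynthesis, clock and growth genes gave few calls, and some were high in a single late library. None of 20 light-harvesting antenna genes was called: LHCB1.1 was at 1308, 338 and 16.0 TPM early and at 6037, 265 and 289 TPM late. FIB2, a fibrillarin of ribosome assembly, was at 12.26 to 19.6 TPM early, at 102 TPM at 4 h and at 14.2 to 22.2 TPM at 8 h and 12 h, and none of 16 ribosome biogenesis genes was called. The evening clock gene PRR5 was at 104 TPM at 4 h against 4.3 and 5.38 TPM at 8 h and 12 h. BOA, the only call among 9 evening clock genes, was at 16.9, 21.9 and 21.4 TPM early and at 0.42, 2.9 and 3.01 TPM late. It fell by 2.90 (SE 0.43, limma adjusted p = 0.0149), and its call was lost without 30 min (0.0733) or 8 h (0.0527). No gene was called among 10 morning clock genes, of which LHY was high at 12 h alone on the late side, or among 12 mitotic genes. Of 16 expansin, XTH and EXORDIUM genes of the cell wall 3 were called lower and 1 higher, against 4.17% and 3.89% of all. None of the 16 was called without 30 min, 8 h or 12 h. Among them PHI-1 fell by 5.59 (SE 0.89, limma adjusted p = 0.0183) and EXO by 4.72 (SE 0.80, limma adjusted p = 0.0224), and EXO was not called without 4 h either (0.0503). GUN4, a regulator of chlorophyll synthesis, was the only call among 11 genes of that pathway; it was at 36.7, 40.3 and 24.9 TPM early and at 196, 163 and 298 TPM late, and rose by 2.63 (SE 0.30, limma adjusted p = 0.00689).

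The blades carried leaf markers throughout. All 7 guard cell, 8 vascular and 4 epidermal markers were measured, while the shoot meristem markers STM and WUS were listed at 0 in all 6 libraries. Of 5 root markers PLT1 and PLT2 were listed at 0, CASP1 and WER stayed at or below 0.32 TPM, and SCR, which also acts in leaves, was at 7.85, 7.84 and 10.67 TPM early and at 7.26, 20.9 and 18.9 TPM late without a call. Of 3 trichome markers GL1 was at most 0.05 TPM. TTG2, which also acts in seed coat tannin formation, was at 1.46, 1.48 and 1.48 TPM early and at 0.81, 20.2 and 29.1 TPM late, and GL2 at 0.37 to 1.29 and 1.43 to 2.59 TPM. Neither was called (differences 2.09 and 0.74). TTG2, like DFR, was low at 4 h and high at 8 h and 12 h, and its part in the flavonoid result was not tested. Among markers, TMM and MYB60 of the stomatal lineage rose by 1.28 and 0.92, ATHB8 of procambium rose by 1.05, and SEOR1 of sieve elements and CER1 of wax synthesis fell by 0.78 and 2.19. Each of these 5 calls was lost without 8 h (limma adjusted p from 0.0568 to 0.134), all but that of CER1 without 30 min (0.0506 to 0.169) and all but that of TMM without 12 h (0.0735 to 0.109). Those of MYB60 and SEOR1 were lost without 1 h (limma adjusted p = 0.0593 and 0.056), and that of SEOR1 without 10 min (0.0584). Their part in the other results was not tested. None of 9 reference genes was called, with a median of 0.08 and differences from -0.41 to 0.91. Without 1 h or 4 h 1 of them was called higher. In coi1-2 the reference gene UBQ10 was called higher (difference 1.16, limma adjusted p = 0.0389), but not without replicate 2 at 30 min (0.0639).

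In coi1-2, whose COI1 transcript averaged 16.1 TPM early and 19.7 TPM late, most wild-type changes went the same way with fewer calls. A transcript level does not check a line known only as a mutant. Of 18502 genes tested, 208 (1.12%) were called higher and 183 (0.989%) lower late, and 4515 had an unadjusted p below 0.05. Without replicate 2 at 30 min the counts were 74 and 46. Of 717 genes called higher in the wild type and tested in coi1-2, 703 (98.0%) were positive there, against 69.7% of all genes. Of 754 called lower, 723 (95.9%) were negative, against 30.3% of all. The median change of these genes in the wild type and in coi1-2 was 1.43 and 0.96 for the higher and -2.31 and -1.37 for the lower. Without replicate 2 at 30 min the coi1-2 medians were 1.02 and -1.60. Of the higher genes 99.0% were then positive, against 65.4% of all, and of the lower 97.8% were negative, against 34.6%. Both sets of genes were chosen by their calls in the wild type, which favours larger values there. The smaller medians therefore do not show a weaker change in coi1-2. Genes called in both numbered 118 higher, which is 16.3% of wild-type and 56.7% of coi1-2 calls, and 149 lower, which is 19.2% and 81.4%. Without replicate 2 at 30 min they numbered 49 and 37. No gene was called in opposite directions in either fit. Leaving out both coi1-2 libraries of a time gave 1 call without 8 h, 13 without 30 min, 13 without 12 h, 387 without 1 h, 1059 without 4 h and 1067 without 10 min.

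**Figure D5:**
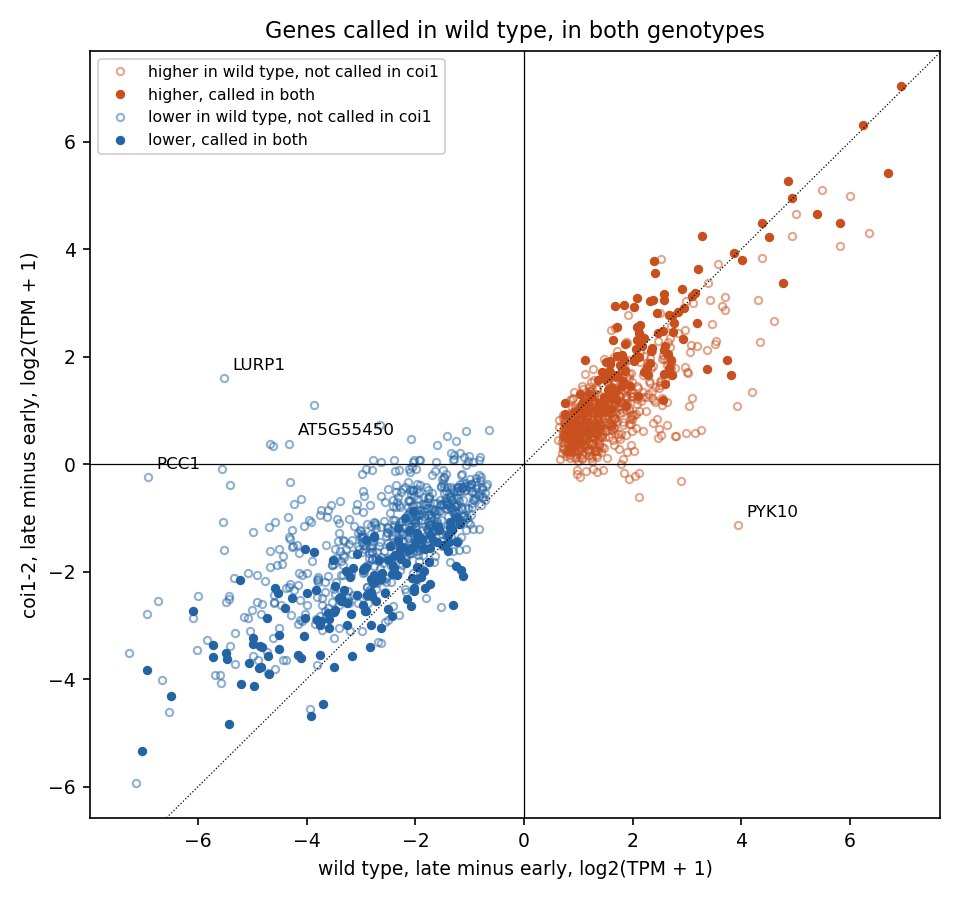
Late minus early difference, in log2(TPM + 1), in the wild type (x axis) and in coi1-2 (y axis) of the genes called in the wild type and tested in coi1-2; filled points were called in both genotypes and the dotted line marks equal change. Most points lie in the same quadrant for both genotypes, while PYK10 is at 3.93 and -1.14 and LURP1 at -5.53 and 1.6.

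EARLI1 rose by 7.04 in coi1-2 (limma adjusted p = 0.0047) and CHS rose by 6.31 (limma adjusted p = 0.0293), close to their wild-type values. TCH4 fell by 5.33 (limma adjusted p = 0.0217). These 3 were also called without replicate 2 at 30 min, with limma adjusted p of 0.00588, 0.0383 and 0.0383. APL3 rose by 3.63 there (limma adjusted p = 0.0275) and LOX4 fell by 2.74 (limma adjusted p = 0.0215), against -6.10 in the wild type. Without replicate 2 at 30 min neither was called, with limma adjusted p of 0.0511 and 0.0608. JAZ1 differed by -1.71 in coi1-2 (limma adjusted p = 0.0906), and LURP1 by 1.6 (limma adjusted p = 0.362). Such pairs of values do not show a difference between genotypes, which was tested by itself. The clock gene CCA1 differed at the same time after cutting. At 1 h it was at 0.2 TPM in the wild type and at 156.13 and 40.68 TPM in coi1-2. Genotype therefore cannot be told apart from clock phase at sampling, in these pairs or in that test.

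The test of the difference between the changes called 3 of 19018 genes, or 0.0158%, and 3398 had an unadjusted p below 0.05. Without the 10 min libraries it called 567 genes, and without those of each other time between 0 and 5. The count of 3 therefore does not show that few changes differ. PYK10, AT3G09260, a beta-glucosidase of ER bodies, was at 5.75, 5.56 and 4.45 TPM early and at 151, 104 and 52.9 TPM late in the wild type, and at 11.4 to 18.9 TPM early and 3.82 to 8.02 TPM late in coi1-2. The change in coi1-2 minus that in the wild type was -5.07 (SE 0.31, limma adjusted p = 0.0144). It was lost without the libraries of 30 min (limma adjusted p = 0.0682), 1 h (0.0568) or 8 h (0.0538) and with replicate 1 of coi1-2 alone (0.0773). AT5G55450, annotated as a lipid transfer-like protein, was at 16.4, 42.3 and 45.6 TPM early and below 1 TPM late in the wild type, and at 0.88 to 13.4 TPM early and 2.0 to 5.68 TPM late in coi1-2. Its changes differed by 4.70 (SE 0.31, limma adjusted p = 0.0144), and by 4.21 with a limma adjusted p of 0.269 without the coi1-2 replicate 2 at 30 min. It was not called without the libraries of 4 h (limma adjusted p = 0.165), 8 h (0.203) or 12 h (0.219) or with replicate 1 of coi1-2 alone (0.323). PLA2A, a phospholipase A of the patatin family, had differences of -1.36 in the wild type and 1.26 in coi1-2, which differed by 2.62 (SE 0.22, limma adjusted p = 0.0484). Without replicate 2 at 30 min its limma adjusted p was 0.269, and PYK10, at 0.0282, was the only gene called. PLA2A was not called without the libraries of 30 min, 1 h, 4 h, 8 h or 12 h either (limma adjusted p from 0.0682 to 0.206), with replicate 1 alone (0.323), on rescaled libraries (0.0835) or with a pseudocount of 0.1 (0.0743).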

How the data were processed

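Per the labels, RNA of whole leaf blades was sequenced on an Illumina HiSeq instrument. The authors deposited TPM tables for each genotype. The submitters' processing notes name Trim Galore 0.5.0, STAR 2.7.2b, RSEM 1.3.2 and TAIR10. Samples were grouped by genotype and time from their titles, and 8 further columns of the wild-type table, 1 per time with names ending in 2, match no sample in the labels and were not used. Of 37686 loci, 37390 were found in RefSeq TAIR10.1, which gave names and the promoter sequences.

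From the TPM values, log2(TPM + 1) of genes at 1 TPM or more in at least 2 of the 6 libraries was fitted for late against early with limma 3.58.1 (R 4.3.3, eBayes with trend, 4 residual degrees of freedom, Benjamini-Hochberg adjustment). The coi1-2 fit used the mean of the 2 libraries of a time, and the difference fit used coi1-2 minus wild type at each time. The labels do not say that libraries came from separate cultures. Beside change with time, the spread behind each p may therefore hold only technical error. Tables were built with pandas 2.3.3 and numpy 2.4.6.

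Named genes were, among called genes reaching 10 TPM, the 12 at each end of the differences and the 10 with the smallest p. From each of 48 lists up to 4 called genes were taken or, where none was called, 2 measured genes. ERF109, ASA1, VSP2, LOX2, JAZ10, CHS and WOX11 were fixed by name. All genes called in the difference fit were named too. AOS, AOC2, AOC3, CBF1, CCA1, CML39, CML41, CML42, COI1, DFR, ICS1, LBD16, PAL1, PRR5 and the absent markers fall outside this rule and were picked once their levels had been seen. The comparison and the lists were chosen with earlier results of these data known. On simulated data for late against early (18596 genes, 50 changed at each size), 12.0%, 54.0%, 82.0% and 82.0% of genes changed by 1, 2, 3 and 4 log2 units were called, and 10 of 18396 unchanged genes. The simulated noise was independent between genes and libraries and held no change with time shared by many genes. These counts therefore give no error rate for the real calls. Alternatives were other pseudocounts, filters and scalings, a fit without trend, libraries added or left out, and a slope on log2 time. Leaving out coi1-2 replicate 2 at 30 min was chosen after seeing the data.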

Additional observations from a re-analysis of the deposited data

Results flagged for a closer look

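In 3 genes the late minus early change differed between the genotypes by the test of the difference itself, given as the change in coi1-2 minus that in the wild type. Genotype cannot be told apart here from clock phase at sampling, as CCA1 levels differed at the same time after cutting. PYK10 differed by -5.07 (limma adjusted p = 0.0144), AT5G55450 by 4.70 (limma adjusted p = 0.0144) and PLA2A by 2.62 (limma adjusted p = 0.0484). With replicate 1 of coi1-2 alone none of the 3 was called (limma adjusted p = 0.0773, 0.323 and 0.323), and without replicate 2 at 30 min PYK10 was (0.0282), while AT5G55450 and PLA2A were not (both 0.269).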

How the results depend on the processing

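No called wild-type gene changed sign under any alternative run. With all 6 libraries 1500 genes were called, against 1525 with a pseudocount of 0.1, 1235 with no filter, 1364 with a filter of 5 TPM, 1496 without the trend and 1427 on rescaled libraries. Of the named genes 19 lost their call with no filter, among them F3H, PAP2, LOX3, JAZ7 and AT1G22190, 3 with a pseudocount of 0.1 and 4 on rescaled libraries. Adding 2 h to the late side gave 3194 calls (1925 higher, 1269 lower), adding t0 to the early side 804 (480 higher, 324 lower), and a slope on log2 time 377 (198 higher, 179 lower). Leaving out 1 library gave 347 to 2006 calls, 107 to 1236 of them higher and 235 to 1235 lower. In coi1-2 leaving out a time gave 1 to 1067 calls, and leaving out replicate 2 at 30 min 120. For the difference between genotypes, leaving out a time gave 0 to 567 calls, with the 567 without 10 min. The 0 came without 8 h, against 3398 genes with an unadjusted p below 0.05 in limma with all times. Replicate 1 of coi1-2 alone gave 0 calls, replicate 2 alone 46, and leaving out replicate 2 at 30 min 1. The cause of these shifts was not tested. The uncalled chloroplast gene ATCG00490 went from 0.33 to -0.016 without 8 h and to 0.53 without 4 h. TPM give no depth, so what depth limits cannot be stated.

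With the 12 coi1-2 libraries fitted singly 5357 genes were called, and with the replicate block 4743. Both fits count libraries of the same time as separate units, though the comparison is between times. These counts therefore overstate the evidence. The replicate numbers did not pair the samples: over 15 pairs of times the correlation of same-numbered deviations ran from -0.327 to 0.237 with a median of -0.057, and 3 were over 0.1.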
